A study of Mus musculus with 18 samples.

Results

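Cells meet misfolded cytosolic protein with chaperones of the HSP70 system and with the heat shock factors (HSFs) that switch on their genes. The 10 genes described here were taken by their symbols from the count table of 23420 genes, and all 10 passed the filter on low counts. They are Hspa8, Hspa1a and Hspa1b (HSP70 chaperones of the cytosol), Hsph1, Hspa4 and Hspa4l (HSP110 chaperones), Dnajb1 and Dnaja1 (HSP40 or J-domain proteins), and Hsf1 and Hsf2. The rule used the symbols and no measured value, although the genes were chosen with earlier results of these data known.

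HSP70 proteins bind exposed hydrophobic stretches of a client protein in a cycle driven by ATP. J-domain proteins bring clients to HSP70 and stimulate its ATPase, and HSP110 proteins act as exchange factors that release ADP so that the client can leave. Hsf1 is the main transcription factor of the heat shock response and binds heat shock elements, arrays of inverted nGAAn units, near its target genes, whereas Hsf2 binds the same kind of element and can act together with Hsf1. Inhibition of the proteasome is a classical inducer of these genes, as is heat.

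The study used NIH-3T3, an established line of mouse embryonic fibroblasts. Wild-type (WT) cells and an Nrf1-KO line, in which the gene for the transcription factor Nrf1 (Nfe2l1 in the table) had been knocked out with CRISPR/Cas9, were left in the vehicle DMSO or were given the proteasome inhibitor carfilzomib (CFZ) at 200 nM for 6 or 24 h. Each of these 6 groups had 3 libraries, described as biological replicates, so that every comparison of the genotypes was between 1 WT line and 1 Nrf1-KO line, and whether the knockout line is a single clone is not given in the sources used here. No duration was given for DMSO, and the same DMSO libraries served both CFZ times within a line. Libraries held from 8333148 to 23917081 counted reads (median 14419832), and levels are given as CPM (counts scaled to a common library total) after TMM scaling. Nfe2l1 itself stood at 457, 437 and 449 CPM in the WT DMSO libraries and at 174, 185 and 181 CPM in the Nrf1-KO DMSO libraries, a log2 difference of -1.31 (standard error 0.0338, edgeR adjusted p = 1.56e-24). It was lower in every Nrf1-KO library than in every WT library of the same treatment, and reads of the gene were still counted there. Under CFZ the log2 difference was -0.62 at 6 h and -1.47 at 24 h. In Nrf1-KO cells Nfe2l1 rose 2.32-fold from DMSO to 6 h. Of 10 fibroblast markers, 9 averaged above 1 CPM in every group, and the other, Fap, was at most 0.116 CPM in any library. Their summed level lay between 27615 and 35891 CPM in the DMSO and 6 h libraries, between 8224 and 8510.0 CPM in WT cells at 24 h and between 11077 and 13148 CPM in Nrf1-KO cells at 24 h, and the part of this fall in the 24 h values below was not tested. Markers of epithelium, leukocytes and endothelium summed to at most 13.03, 10.2 and 5.05 CPM. The leukocyte sum was at most 2.32 CPM in DMSO and at 6 h and at least 6.28 CPM at 24 h. Among the epithelial markers Cdh1 was the highest, at up to 13.03 CPM in a library. Csf1r and Cd68 were the highest leukocyte markers, at up to 7.004 and 4.63 CPM, and Cdh5 the highest endothelial marker, at up to 3.66 CPM. Epcam, Krt18, Cldn4 and Cd3e were at 0 in every library.

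The sequence around the start sites is shown for Hspa1b, Hsph1, Dnaja1 and Dnajb1, because heat shock elements lie close to the start of many chaperone genes. RefSeq windows on GRCm38.p6, from 250 bases before to 50 after a start site, were found for 8 of the 10 genes, 12 windows in all. Hspa8 and Hsf1 had no entry. The searches were for GAANNTTC and TTCNNGAA, each a pair of inverted units and its own reverse complement, so that a match counts for both strands. At least 1 of these patterns was found in 15.1% of 32851 windows of all genes (GAANNTTC in 7.86% and TTCNNGAA in 8.52%) and in 5 of the 12 windows of the members. The 5 windows were those of Hspa1a and Hspa1b, which are near-copies, the 2 overlapping windows of Hsph1, and 1 of the 3 windows of Dnaja1. The Hspa1b stretch of 250 bases before the start site, chr17:34959239-34959488 on the minus strand, holds 1 match. Its letters GAANNTTC are in capitals:
Hspa1b: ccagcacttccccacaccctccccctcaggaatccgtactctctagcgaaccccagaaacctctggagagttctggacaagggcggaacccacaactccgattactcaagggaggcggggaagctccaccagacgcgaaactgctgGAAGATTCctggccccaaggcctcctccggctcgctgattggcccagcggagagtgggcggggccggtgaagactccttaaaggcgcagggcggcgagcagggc

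The 300-base windows of Hspa1b and Hspa1a (chr17:34972107-34972406, minus strand) were the same at 296 positions (98.7%). Counted from 1 at the 5′ end of the window and with the Hspa1b base first, the differences were T44C, C47T, G249T and T276C, and none lay in the match. For Hsph1 and Dnaja1 a stretch of 30 bases around each match is shown. In Hsph1 (minus strand) the stretch chr5:149636351-149636380 lies before the start site of one RefSeq window and holds a pair of units, and the stretch chr5:149636287-149636316 lies after it and holds 3 alternating units in a row, an arrangement found in 0.603% of all windows. The Dnaja1 stretch is chr4:40722333-40722362 on the plus strand. GENCODE M21, used below for gene positions, places the 5′ end of Hsph1 at 149636376 and that of Dnaja1 at 40722150. By those positions the matches shown for Hsph1 and Dnaja1 lie inside the genes, so before and after refer to the RefSeq start only. Capitals again mark the matched letters:
Hsph1, before the start: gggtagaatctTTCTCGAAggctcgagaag
Hsph1, after the start: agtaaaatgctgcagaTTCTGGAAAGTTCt
Dnaja1: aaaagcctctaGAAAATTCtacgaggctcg

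Dnajb1 is shown for contrast, since its mRNA rose in WT cells at 6 h by 3.32 on the log2 scale beside 3.33 for Hsph1, while neither of its 2 windows matched either pattern. A window without a match says only that these letters were not in it. The 250 bases before its first RefSeq start, chr8:83607925-83608174 on the plus strand, read:
Dnajb1: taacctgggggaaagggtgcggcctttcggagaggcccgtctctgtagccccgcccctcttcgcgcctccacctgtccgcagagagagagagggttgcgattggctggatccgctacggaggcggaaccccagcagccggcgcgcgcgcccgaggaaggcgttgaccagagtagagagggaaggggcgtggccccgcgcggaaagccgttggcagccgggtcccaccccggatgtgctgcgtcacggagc

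The windows of Hspa4, Hspa4l and Hsf2 held neither pattern. The core of the antioxidant response element to which Nrf1 and its relatives bind, searched on both strands as TGACNNNGC, was in 12.4% of all windows. Among the members it was in both windows of Hsph1 and in 1 of those of Dnajb1.

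The first question was how CFZ changes these genes in each line. CFZ raised all 10 in WT and in Nrf1-KO cells, at 6 h and at 24 h, and in each of these 4 comparisons every treated library was above every DMSO library of its line for all 10. Across all 11762 genes tested, 35.6% were called higher in WT cells at 6 h, 43.2% in WT cells at 24 h, 34.5% in Nrf1-KO cells at 6 h and 44.4% in Nrf1-KO cells at 24 h (edgeR's quasi-likelihood test, Benjamini-Hochberg adjusted p under 0.05), and 36.2%, 40.5%, 35.0% and 41.1% were called lower. Higher without overlap were 36.7%, 43.4%, 35.0% and 43.8% of all genes, in the same order. At least 2-fold higher were 8 of the 10 in WT cells at 6 h against 3.98% of all genes, 9 at 24 h against 10.5%, 7 in Nrf1-KO cells at 6 h against 3.30% and 8 at 24 h against 11.5%. Since the members were chosen with earlier results of these data known, these counts describe them and are no independent test. The median log2 fold change of the 10 was 2.17 and 1.54 in WT cells at 6 and 24 h and 2.31 and 2.43 in Nrf1-KO cells, while that over all genes tested lay between -0.019 and 0.030. Upper-quartile scaling or library size alone moved the median of all genes by -0.103 to -0.182 in 7 of 8 such refits, and all 10 members stayed higher in each. In bulk RNA a change in the cells that carry an mRNA cannot be told apart from a change in the mRNA per cell, and a CPM value is a share of the library and not an amount per cell.

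**Figure D1:**
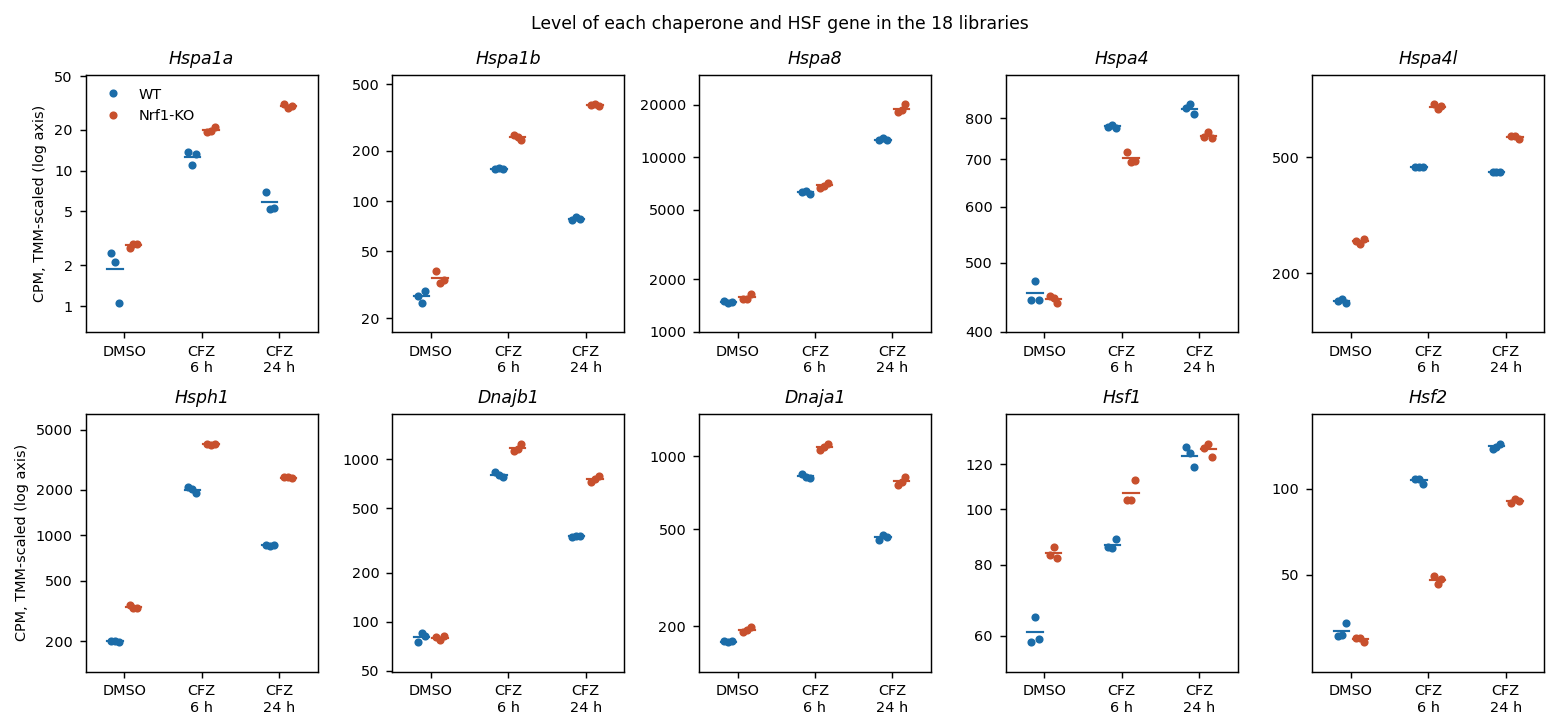
Level of each of the 10 genes in CPM (TMM-scaled, log axis) in DMSO, at 6 h and at 24 h of CFZ. Points are libraries (3 a group), short lines are group means, and colours separate WT from Nrf1-KO cells. Every gene was higher in all CFZ libraries than in all DMSO libraries of its line, and Hspa1a and Hspa1b fell between 6 and 24 h in WT cells but rose in Nrf1-KO cells.

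The 10 genes together took 0.278% to 0.280% of all counted reads in WT DMSO libraries, 1.08% to 1.11% after 6 h of CFZ and 1.53% to 1.57% after 24 h. In Nrf1-KO cells the share was 0.323% to 0.336% in DMSO, 1.47% to 1.54% at 6 h and 2.30% to 2.47% at 24 h. No library of a group reached the range of another group in the same line. Hspa8 was the largest part of this share in every group.

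**Figure D2:**
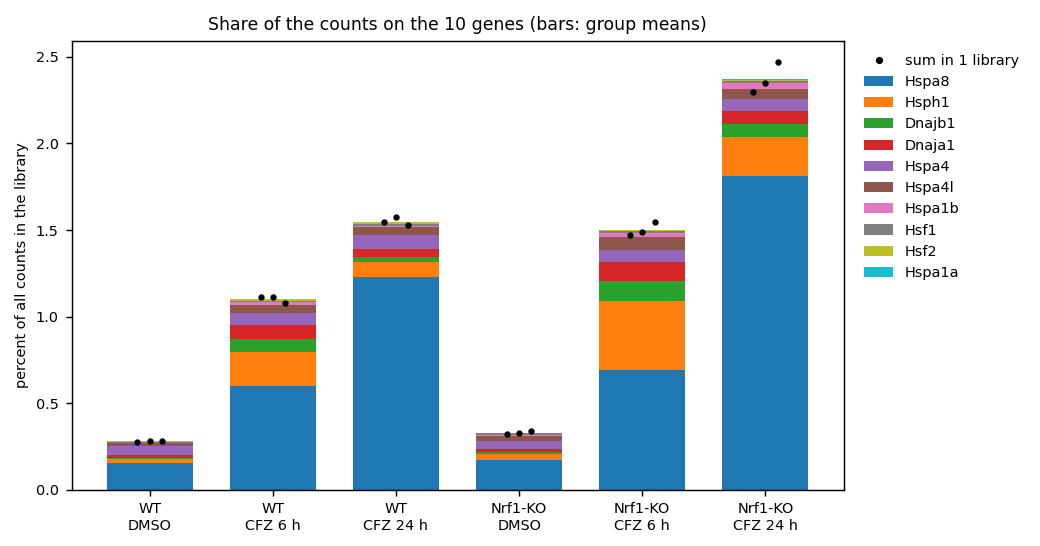
Share of all counts of a library, in percent, that fell on the 10 genes. Stacked bars are group means by gene and points are the sums in single libraries. The sum rose from DMSO to 6 h and again to 24 h in both lines, with the highest values, 2.30% to 2.47%, in Nrf1-KO cells at 24 h.

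Levels were set against each other per kilobase of exon, the scale on which genes of different length can be compared. Hspa8 was the highest of the 10 in every group, at 345 ± 3.66 CPM per kilobase in WT DMSO (SD, n = 3). It was followed there by Hspa4 at 81.9 ± 2.86, Hsph1 at 27.4 ± 0.262, Dnajb1 at 25.2 ± 1.65, Dnaja1 at 20.02 ± 0.0672, Hspa4l at 13.7 ± 0.186, Hspa1b at 9.62 ± 0.749, Hsf1 at 8.57 ± 0.474, Hsf2 at 3.29 ± 0.203 and Hspa1a at 0.637 ± 0.250. Of the neighbours in this order, Hspa1b and Hsf1 overlapped between libraries, and the others did not. At 6 h the HSP110 gene Hsph1 moved up behind Hspa8, to 276 ± 12.5 in WT and 549.8 ± 7.84 in Nrf1-KO cells, with Dnajb1 next at 251 ± 8.76 and 366 ± 20.7. Hspa1b reached 134 ± 2.03 in Nrf1-KO cells at 24 h, beside Hspa4 at 137 ± 1.43. With the length of the longest transcript in place of all exons Hspa8 stayed highest and some lower places changed.

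Hspa8 (chromosome 9 from 40800984 to 40810087, plus strand, GRCm38) encodes HSC70, the HSP70 that cells make without stress. In WT cells it stood at 1500.2, 1469 and 1485 CPM in the DMSO libraries, at 6349, 6416 and 6154 CPM at 6 h and at 12536, 12909 and 12500.3 CPM at 24 h. In Nrf1-KO cells the values were 1542, 1541 and 1641 CPM in DMSO, 6689, 6858 and 7154 CPM at 6 h and 18174, 18699 and 20163 CPM at 24 h. No groups overlapped, and of the 10 genes only Hspa8 was at least 2-fold higher at 24 h than at 6 h in WT cells, as were 5.16% of all genes. The log2 fold change over DMSO was 2.09 (standard error 0.0377, edgeR adjusted p = 1.94e-29) at 6 h and 3.09 (standard error 0.0392, edgeR adjusted p = 6.66e-34) at 24 h in WT cells, and 2.13 and 3.59 in Nrf1-KO cells. The response at 6 h differed between the lines by 0.044 on the log2 scale (95% interval from -0.06 to 0.15), which did not pass the test (edgeR adjusted p = 0.534). At 24 h it was larger in Nrf1-KO cells by 0.50 (standard error 0.0513, edgeR adjusted p = 6.26e-10). In DMSO the lines differed by 0.085 (edgeR adjusted p = 0.0473), a call that was lost without WT DMSO replicate 2 (0.078), WT DMSO replicate 3 (0.084) or Nrf1-KO DMSO replicate 3 (0.055). Of the stretches of read length in its transcripts, 25.1% also occur in transcripts of the pseudogenes Gm15459, Gm8355, Gm6210 and Gm7232, so that reads there may have been counted in other ways.

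Hspa1b and Hspa1a lie on the minus strand of chromosome 17, from 34956436 to 34959238 and from 34969190 to 34972156, and encode the stress-inducible HSP70. Hspa1b stood at 27.3, 24.7 and 28.9 CPM in WT DMSO libraries, rose to 156, 158 and 155 CPM at 6 h and stood at 77.0, 80.0 and 78.5 CPM at 24 h. In Nrf1-KO cells it went from 38.1, 32.5 and 33.8 CPM to 248, 242 and 232 CPM at 6 h and 376, 379 and 368 CPM at 24 h. The lines therefore parted after 6 h, since at 24 h every WT library was lower, and every Nrf1-KO library higher, than those of its line at 6 h. From 6 to 24 h the log2 change of Hspa1b was -0.99 (standard error 0.0435, edgeR adjusted p = 2.91e-19) in WT cells and 0.63 (standard error 0.0373, edgeR adjusted p = 3.71e-16) in Nrf1-KO cells, and the difference between these changes was 1.63 (standard error 0.0573, edgeR adjusted p = 2.11e-20). The response to CFZ was larger in Nrf1-KO than in WT cells by 0.26 (standard error 0.0701, edgeR adjusted p = 0.00362) at 6 h and by 1.89 (standard error 0.0717, edgeR adjusted p = 3.98e-20) at 24 h. At 24 h the level in Nrf1-KO cells was 4.76-fold that in WT cells, compared with 1.29-fold in DMSO and 1.54-fold at 6 h.

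Hspa1a was counted at far lower levels, 2.49, 2.13 and 1.06 CPM in WT DMSO, 13.7, 10.9 and 13.3 CPM at 6 h and 7.01, 5.22 and 5.27 CPM at 24 h. The Nrf1-KO libraries gave 2.69, 2.86 and 2.85 CPM in DMSO, 19.4, 19.8 and 21.1 CPM at 6 h and 30.9, 28.9 and 30.2 CPM at 24 h. The pattern over the groups was that of Hspa1b, with a log2 change after 6 h of -1.15 (standard error 0.127) in WT cells and 0.59 (standard error 0.0836) in Nrf1-KO cells, and no groups overlapped within a line. The interaction was 1.87 (standard error 0.246, edgeR adjusted p = 9.40e-08) at 24 h and 0.14 at 6 h (95% interval from -0.34 to 0.61), the latter not past the test (edgeR adjusted p = 0.682). In DMSO the lines differed by 0.53 (standard error 0.204, edgeR adjusted p = 0.0291). That call was lost without WT DMSO replicate 3 (0.28), Nrf1-KO DMSO replicate 2 (0.52) or Nrf1-KO DMSO replicate 3 (0.51), and the difference was 0.81 without WT DMSO replicate 1. Of the stretches of read length in their transcripts, 43.8% for Hspa1a and 44.8% for Hspa1b also occur in another gene, mostly the other of the pair, and Hspa1a took only 3.54% to 8.35% of their joint counts (median 7.59%), so the split between them is uncertain. Hspa1a also overlaps Gm20481 on the opposite strand over 19% of its exon. With the counts of the pair summed, the log2 fold change was 2.55 and 1.55 in WT cells and 2.80 and 3.43 in Nrf1-KO cells at 6 and 24 h, and the interaction was 0.25 (edgeR adjusted p = 0.00237) at 6 h and 1.88 (edgeR adjusted p = 5.47e-21) at 24 h.

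Among the HSP110 exchange factors, Hsph1 (chromosome 5 from 149614287 to 149636376, minus strand) had the largest response. It stood at 201, 199 and 198 CPM in WT DMSO libraries, 2089, 2019 and 1909 CPM at 6 h and 861, 855 and 858 CPM at 24 h. In Nrf1-KO cells it stood at 345, 333 and 332 CPM, 4014, 3931 and 4040.0 CPM and 2422, 2422 and 2381 CPM. Every Nrf1-KO library was above every WT library of the same treatment, and both lines peaked at 6 h. The rise at 6 h was 10.1-fold in WT cells and 11.9-fold in Nrf1-KO cells, with an interaction of 0.24 (standard error 0.0470, edgeR adjusted p = 1.33e-04), and at 24 h it was 4.30-fold and 7.15-fold, with an interaction of 0.73 (standard error 0.0473, edgeR adjusted p = 1.67e-14). The level was already 1.69-fold higher in Nrf1-KO than in WT cells in DMSO (edgeR adjusted p = 4.35e-18).

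Hspa4l (chromosome 3 from 40744495 to 40796103, plus strand) also stood higher in Nrf1-KO cells from the start, at 259, 253 and 262 CPM against 161, 163 and 159 CPM in WT cells in DMSO. At 6 h it reached 759.9, 732 and 747 CPM against 463, 463 and 464 CPM, and at 24 h 592, 590.4 and 579 CPM against 447, 444 and 446 CPM. The lines did not overlap at any time. The response at 6 h was 1.52 in WT and 1.53 in Nrf1-KO cells on the log2 scale, a difference of 0.0093 (95% interval from -0.08 to 0.10, edgeR adjusted p = 0.893). At 24 h it was smaller in Nrf1-KO cells, with an interaction of -0.28 (standard error 0.0435, edgeR adjusted p = 1.72e-06). In WT cells the change from 6 to 24 h was -0.056 (edgeR adjusted p = 0.0934). It passed the test with upper-quartile scaling (-0.084), with no filter on low counts (-0.084), with a fit of the compared groups only (-0.066), and without WT CFZ 6 h replicate 1 (-0.10), replicate 2 (-0.095) or replicate 3 (-0.10).

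Hspa4 (chromosome 11 from 53259814 to 53300457, minus strand) had the smallest spread between groups of the chaperones. WT libraries gave 444, 471 and 444 CPM in DMSO, 779, 783 and 776 CPM at 6 h and 828, 837 and 812 CPM at 24 h. Nrf1-KO libraries gave 449, 447 and 439.6 CPM, 717, 694 and 695 CPM and 753, 764 and 749 CPM. CFZ raised it in both lines, by 0.78 (standard error 0.0316) and 0.87 (standard error 0.0316) in WT and 0.66 (standard error 0.0317) and 0.76 (standard error 0.0315) in Nrf1-KO cells at 6 and 24 h, and under CFZ it was lower in every Nrf1-KO library than in every WT library. This lower level was -0.15 at 6 h (edgeR adjusted p = 1.23e-04) and -0.13 at 24 h (edgeR adjusted p = 5.16e-04), while the lines overlapped in DMSO. The interactions were small, -0.12 at 6 h (edgeR adjusted p = 0.0266) and -0.10 at 24 h (edgeR adjusted p = 0.0473). The call at 6 h was lost with upper-quartile scaling (-0.09) and library size alone (-0.10), and without WT DMSO replicate 3 (-0.11), Nrf1-KO DMSO replicate 1 (-0.12) or 2 (-0.12), or Nrf1-KO CFZ 6 h replicate 2 (-0.12) or 3 (-0.12). The call at 24 h was lost with upper-quartile scaling (-0.075), with no filter on low counts (-0.10), with a fit of the compared groups only (-0.10), and without replicate 1 or 3 of WT DMSO, 1 or 2 of WT CFZ 24 h, 1 or 2 of Nrf1-KO DMSO, or 1 or 3 of Nrf1-KO CFZ 24 h, with values from -0.087 to -0.10. From 6 to 24 h it rose in WT cells by 0.083 (edgeR adjusted p = 0.0177), a call lost with upper-quartile scaling (0.056), with no filter on low counts (0.055), without any 1 of the WT CFZ 6 h libraries (0.04 to 0.049) or without WT CFZ 24 h replicate 2 (0.074). The rise of 0.11 in Nrf1-KO cells (edgeR adjusted p = 0.00312) lost its call with library size alone (0.035).

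The J-domain gene Dnajb1 (chromosome 8 from 83608193 to 83612653, plus strand), which encodes the stress-inducible HSP40, had the largest 6 h response of the 10 in Nrf1-KO cells. Its level was 75.1, 85.5 and 82.0 CPM in WT DMSO libraries, 833, 803 and 777 CPM at 6 h and 333, 337 and 339 CPM at 24 h. In Nrf1-KO cells it was 80.4, 76.7 and 81.3 CPM, 1122, 1150.2 and 1248 CPM and 721, 754 and 785 CPM. The lines overlapped in DMSO, with a log2 difference of -0.021 (95% interval from -0.12 to 0.081, edgeR adjusted p = 0.748), and were apart at both CFZ times. The rise was 9.96-fold in WT and 14.7-fold in Nrf1-KO cells at 6 h, and 4.17-fold and 9.47-fold at 24 h. The interaction was 0.56 (standard error 0.0647, edgeR adjusted p = 2.00e-08) at 6 h and 1.18 (standard error 0.0655, edgeR adjusted p = 3.87e-16) at 24 h.

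Dnaja1 (chromosome 4 from 40722150 to 40737149, plus strand), which encodes a J-domain protein made in most cells, also rose in both lines. It stood at 173, 172 and 173 CPM in WT DMSO libraries, 844, 823 and 811 CPM at 6 h and 452, 474 and 466 CPM at 24 h, and in Nrf1-KO cells at 189, 193 and 197 CPM, 1060.0, 1091 and 1125 CPM and 757, 785 and 817 CPM. Neither the lines under the same treatment nor the treatments within a line overlapped. The interaction was 0.24 (standard error 0.0495, edgeR adjusted p = 2.08e-04) at 6 h and 0.60 (standard error 0.0498, edgeR adjusted p = 6.52e-12) at 24 h. Of its stretches of read length 8.02% occur in other transcripts, among them the pseudogene Gm15542, and 9.93% of its exon bases overlap Smu1 or Gm6297 on the opposite strand.

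Of the factors, Hsf1 had the lowest log2 fold change of the 10 genes in 3 of the 4 comparisons of CFZ with DMSO, the exception being WT cells at 24 h. Hsf1 (chromosome 15 from 76477422 to 76501913, plus strand) stood at 58.5, 64.7 and 59.3 CPM in WT DMSO, 85.8, 85.6 and 88.7 CPM at 6 h and 128.6, 125.4 and 118.6 CPM at 24 h. The Nrf1-KO libraries gave 83.3, 85.8 and 82.2 CPM, 104, 104 and 112 CPM and 128, 131 and 124 CPM. The lines were apart in DMSO and at 6 h, with the Nrf1-KO libraries higher, and overlapped at 24 h. The difference was 0.46 (standard error 0.0436, edgeR adjusted p = 1.84e-10) in DMSO, 0.29 at 6 h and 0.042 at 24 h (95% interval from -0.039 to 0.12, edgeR adjusted p = 0.348), so the fold response was smaller in Nrf1-KO cells. The interaction was -0.42 (standard error 0.0592, edgeR adjusted p = 3.82e-07) at 24 h and -0.17 (standard error 0.0622, edgeR adjusted p = 0.0351) at 6 h. The 6 h call was lost with DESeq2 (-0.16), upper-quartile scaling (-0.13) and library size alone (-0.15), and without WT DMSO replicate 1 (-0.16) or 3 (-0.15), Nrf1-KO DMSO replicate 2 (-0.15), or Nrf1-KO CFZ 6 h replicate 1 (-0.15) or 2 (-0.15).

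Hsf2 (chromosome 10 from 57486385 to 57513135, plus strand) stood lower in Nrf1-KO than in WT cells under CFZ. In WT cells it went from 30.4, 30.6 and 33.9 CPM in DMSO to 108, 108 and 104 CPM at 6 h and 138, 139.9 and 144 CPM at 24 h. In Nrf1-KO cells it went from 30.0, 30.0 and 29.1 CPM to 49.4, 46.5 and 48.1 CPM and 88.8, 91.9 and 90.4 CPM. Under CFZ every Nrf1-KO library was below every WT library, at 2.22-fold lower at 6 h and 1.55-fold lower at 24 h, whereas in DMSO the difference of -0.091 did not pass the test (95% interval from -0.19 to 0.013, edgeR adjusted p = 0.132) although all Nrf1-KO libraries lay lower there too. CFZ raised Hsf2 by 1.76 (standard error 0.0438) in WT cells and by 0.70 (standard error 0.0505) in Nrf1-KO cells at 6 h, an interaction of -1.06 (standard error 0.0673, edgeR adjusted p = 3.45e-14). At 24 h the rises were 2.16 and 1.61, an interaction of -0.55 (standard error 0.0627, edgeR adjusted p = 6.99e-09).

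**Figure D3:**
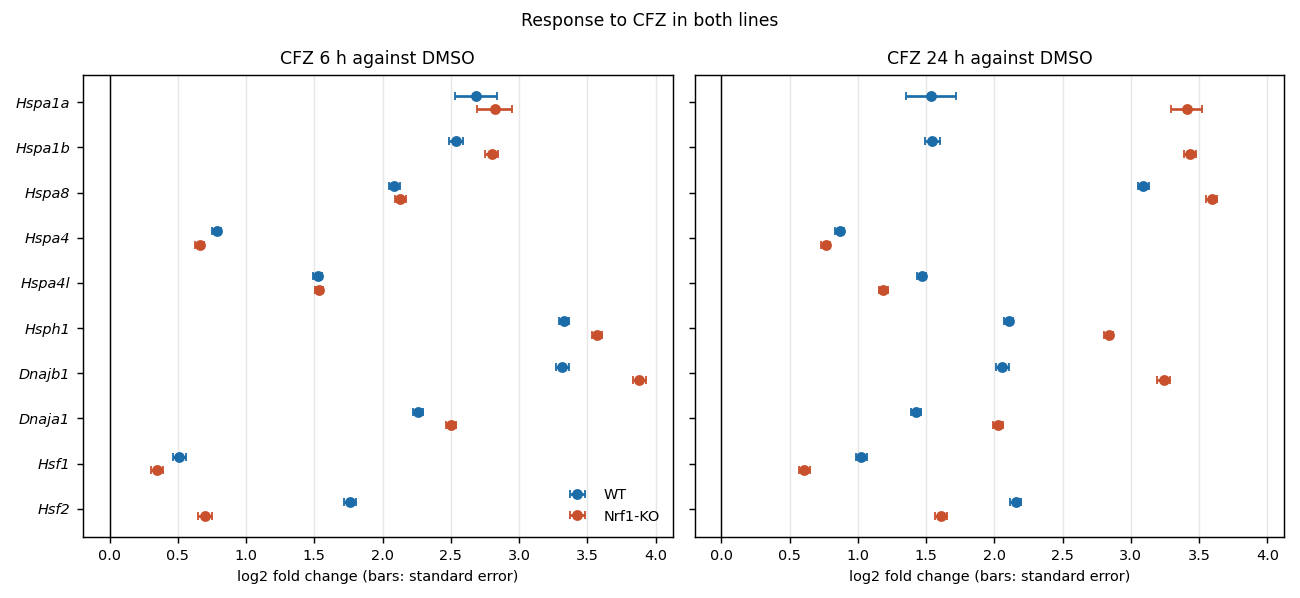
Log2 fold change of the 10 genes under CFZ against DMSO at 6 h (left) and 24 h (right), with standard errors, in WT and Nrf1-KO cells. All 40 values are above 0. At 24 h the WT and Nrf1-KO values lie far apart for Hspa1a and Hspa1b (1.55 against 3.43 for Hspa1b).

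A further comparison asked whether the early response lasted. From 6 to 24 h in WT cells 4 members rose (Hspa8, Hsf1, Hsf2 and, with a call that depended on single libraries, Hspa4) and 5 fell (Hspa1a, Hspa1b, Hsph1, Dnajb1 and Dnaja1), while 36.9% of all genes were called higher and 35.4% lower. In Nrf1-KO cells 6 rose and 4 fell, against 38.7% and 38.3% of all genes. The fall of Hsph1 was -1.22 (standard error 0.0329, edgeR adjusted p = 7.69e-25) in WT and -0.73 in Nrf1-KO cells, that of Dnajb1 was -1.26 and -0.64, and that of Dnaja1 was -0.83 and -0.47. Each of these genes was lower in every 24 h library than in every 6 h library of its line. Hsf2 rose by 0.40 in WT and 0.91 in Nrf1-KO cells, and Hsf1 by 0.52 and 0.26. The change over time was more positive in Nrf1-KO than in WT cells for 7 members and less positive for 2, Hsf1 and Hspa4l, against 20.7% and 22.2% of all genes. For Hspa4 it differed by 0.022 (95% interval from -0.068 to 0.11, edgeR adjusted p = 0.724).

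The last comparisons set the lines against each other. In DMSO 7 members were higher in Nrf1-KO cells and none was lower (25.7% and 29.1% of all genes), at 6 h 8 were higher and 2 lower (30.5% and 30.8%), and at 24 h 7 were higher and 2 lower (35.6% and 36.4%), with Hspa4 and Hsf2 lower at both times. Among the 7 in DMSO, the calls of Hspa1a and Hspa8 depended on single libraries. The response to CFZ itself was larger in Nrf1-KO cells for 4 members at 6 h, namely Hspa1b, Hsph1, Dnajb1 and Dnaja1, and smaller for 3, Hspa4, Hsf1 and Hsf2, against 19.8% and 18.4% of all genes. At 24 h it was larger for 6 members, with Hspa1a and Hspa8 added, and smaller for 4, with Hspa4l added, against 29.7% and 30.0% of all genes. The calls of Hspa4 at both times and of Hsf1 at 6 h depended on the processing and on single libraries. The median interaction of the 10 was 0.091 at 6 h and 0.55 at 24 h, beside 0.017 and 0.0049 for all genes tested.

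**Figure D4:**
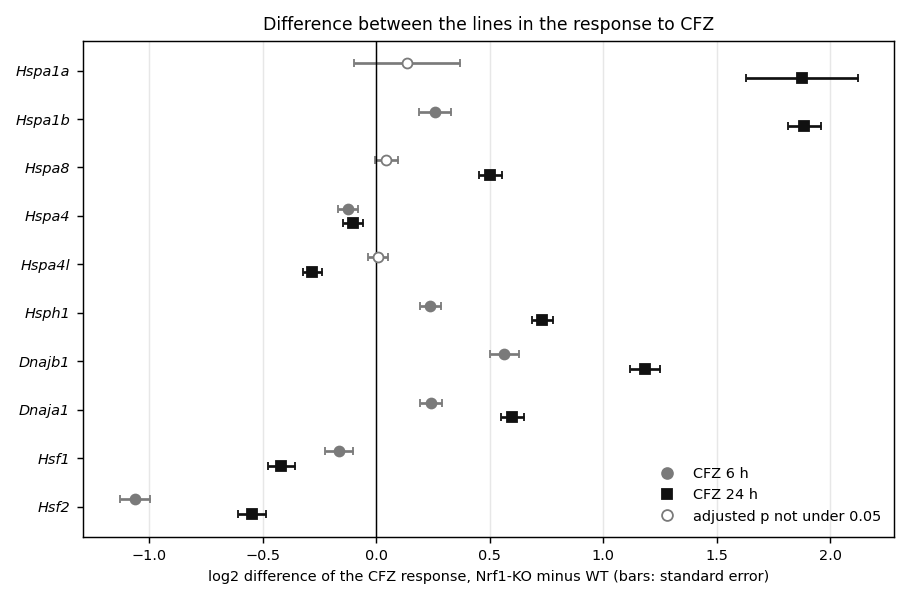
Difference between the lines in the log2 response to CFZ (Nrf1-KO minus WT) for each gene, with its standard error, at 6 h (circles) and 24 h (squares), with open symbols where the adjusted p was not under 0.05. Hspa1a and Hspa1b are at 1.87 and 1.89 at 24 h, and Hsf2 has the lowest value, -1.06 at 6 h.

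Related genes were set beside the members as lists, also chosen with earlier results of these data known. In the list of 18 stress genes that are HSF-linked but lie outside the HSP70 system, 17 were tested, since Hspb1 had at most 2 counts in any library. In WT cells 16 of the 17 rose at 6 h and none fell (median log2 fold change 1.77), and 15 rose and 2 fell at 24 h (1.40). In Nrf1-KO cells 16 rose and 1 fell at 6 h (1.91) and likewise at 24 h (1.63). Of all genes, 35.6% were called higher and 36.2% lower in WT cells at 6 h, and 43.2% and 40.5% at 24 h. The shares in Nrf1-KO cells were 34.5% and 35.0% at 6 h and 44.4% and 41.1% at 24 h. At 6 h the cytosolic HSP90 gene Hsp90aa1 rose by 2.74 in WT and 3.06 in Nrf1-KO cells. The largest rises at 24 h were those of the small heat shock protein gene Cryab, 4.75 and 5.21, and of the polyubiquitin gene Ubb, 3.29 and 3.53. Serpinh1, the collagen chaperone HSP47 of the ER, fell at 24 h, with a log2 fold change of -1.30 in WT and -0.19 in Nrf1-KO cells, and the HSP90 co-chaperone gene Fkbp4 had a log2 fold change of -0.51 in WT cells at 24 h. Hsbp1, for HSF-binding protein, was -0.17 in Nrf1-KO cells at 6 h. The interaction was called positive for 11 of the 17 at 6 h and negative for 1 (median 0.23), against 19.8% and 18.4% of all genes. At 24 h it was positive for 10 and negative for 3 (0.24), against 29.7% and 30.0%. A positive value can also mark a smaller fall in Nrf1-KO cells, as for Serpinh1 at 24 h. The most positive interactions were those of Cryab (0.61) and Fkbp4 (0.53) at 6 h and Serpinh1 (1.11) and Fkbp4 (0.61) at 24 h. The 1 called negative at 6 h was Hspb8, a small heat shock protein, at -0.29, and the most negative of the 3 at 24 h were Hsbp1 (-0.33) and Cacybp (-0.31).

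The other HSP70 and J-domain genes, listed as cytosolic, a label not tested here, did not move as a block. Of 27 tested, 17 rose and 6 fell in WT cells at 6 h (median 0.31) and 16 rose and 8 fell at 24 h (0.29), and in Nrf1-KO cells 17 rose and 8 fell at 6 h (0.20) and 14 rose and 10 fell at 24 h (0.19). The shares of all genes, higher and lower, were 35.6% and 36.2%, 43.2% and 40.5%, 34.5% and 35.0%, and 44.4% and 41.1%, in the same order. Dnaja4, a relative of Dnaja1, rose in all 4 comparisons, by 2.12 and 1.98 in WT and 2.61 and 2.16 in Nrf1-KO cells at 6 and 24 h. Dnajb4 rose by 2.17 in WT cells at 6 h. Its group means in DMSO, at 6 h and at 24 h were 65.6, 296 and 186 CPM in WT cells. They were 49.7, 205 and 147 CPM in Nrf1-KO cells, so it was higher under CFZ in both lines. Dnajc6, the auxilin gene, was called higher too but had 0 to 2 counts in each DMSO library of either line, against 5 to 8 in WT and 45 to 61 in Nrf1-KO libraries at 24 h, so no fold is given. The lowest values were those of Hspa12b in WT cells (-0.63 at 6 h and -1.29 at 24 h), Dnajb5 in WT cells at 6 h (-0.59), Hspa12a (-1.41 in WT and -2.28 in Nrf1-KO cells at 24 h, and -1.93 in Nrf1-KO cells at 6 h), Dnajc17 in Nrf1-KO cells at 6 h (-0.60) and Dnajb14 in Nrf1-KO cells at 24 h (-2.15). The interaction was called positive for 2 of the 27 and negative for 7 at 6 h (median -0.070), against 19.8% and 18.4% of all genes. At 24 h it was positive for 2 and negative for 12 (-0.13), against 29.7% and 30.0%. A negative value can also mark a larger fall in Nrf1-KO cells, as for Hspa12a at 6 h and Dnajb14 at 24 h. The 2 positive ones were Dnaja4 (0.49) and Dnajb2 (0.19) at 6 h and Dnajc27 (0.49) and Dnajc14 (0.25) at 24 h. The most negative were Hspa12a (-1.40) and Dnajc2 (-0.72) at 6 h and Dnajb14 (-1.24) and Dnajc2 (-0.61) at 24 h. Hspa12a was near the floor, averaging 1.77 CPM in WT and 3.10 CPM in Nrf1-KO cells in DMSO. It averaged 1.22 and 0.78 CPM at 6 h and 0.65 and 0.64 CPM at 24 h, so its folds rest on few reads.

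HSP70 and HSP110 genes of the ER and mitochondria were a further list. The ER members Hyou1, an HSP110 relative, and Hspa13 stood at 113 ± 4.23 and 54.2 ± 2.53 CPM in WT DMSO (SD, n = 3), and the mitochondrial HSP70 gene Hspa9 at 968 ± 16.0 CPM. Hyou1 rose by 0.75 and 1.60 in WT and by 0.97 and 2.20 in Nrf1-KO cells at 6 and 24 h. The ER HSP70 gene Hspa5 (BiP) rose by 1.58 and 2.13 in WT and 1.59 and 2.96 in Nrf1-KO cells. Hspa9 changed by 0.22 at 6 h in WT and 0.51 and 0.28 at 6 and 24 h in Nrf1-KO cells, and its value of 0.042 in WT cells at 24 h did not pass the test. Hspa13 rose in WT cells at 6 h (0.94) and fell in Nrf1-KO cells (-0.29), an interaction of -1.24 (standard error 0.0619, edgeR adjusted p = 9.78e-17). Its log2 difference between the lines (Nrf1-KO minus WT) was 0.83 in DMSO and -0.41 at 6 h. Of the other HSF genes, Hsf4, at 6.66 ± 0.385 CPM in WT DMSO, was the only one with enough counts to be tested, and it was lower at 24 h of CFZ in Nrf1-KO cells, by a log2 fold change of -0.69 (standard error 0.127, edgeR adjusted p = 1.03e-05). Hsf4 was also called lower in WT cells at 6 h (-0.28). Its values of -0.026 in WT cells at 24 h and 0.0067 in Nrf1-KO cells at 6 h did not pass the test. Hsfy2 had no count in any library, Hsf3 at most 1 and Hsf5 at most 4.

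The genes outside the 10 members whose levels ran most like those of a member over the 18 libraries were found by Pearson's r of log2(CPM + 1), among genes with a mean of at least 10 CPM. Some members ran closer to each other than to any gene of this search, such as Dnaja1 and Dnajb1 (r = 0.998) and Hspa1a with Hspa1b (0.987 against 0.978 for the next gene of Hspa1a). The libraries share the 6 groups, and 3 genes were kept for each member. Dnaja1 and Dnajb1 were closest to Hspd1, the mitochondrial chaperonin HSP60 (r = 0.996 and 0.994), and to 9430008C03Rik (0.994 and 0.995), with Phlda1 next for Dnaja1 (0.991) and Btg2 for Dnajb1 (0.990). For Hsph1 they were Phlda1 (0.989), Rab5a (0.988) and Hspd1 (0.987). Hspa8 ran with Rbm18 (0.996), Mettl2 (0.995) and Hspa5 (0.994), and Hspa4 with Hmox1 (0.996), Tsr1 (0.993) and Fxr1 (0.990). For Hspa4l they were Aen (0.988), Nfe2l2 (0.985) and Usp16 (0.983). Hspa1a and Hspa1b shared 4933426M11Rik (0.978 and 0.985) and 5430416N02Rik (0.972 and 0.983), with Rsrc2 (0.972) for Hspa1a and Hnrpdl (0.988) for Hspa1b. Hsf1 ran with Anks3 (0.984), Sart3 (0.980) and Nipal1 (0.977), and Hsf2 with Tax1bp1, Ppard and Gabarapl1 (0.993, 0.992 and 0.992).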

How the data were processed

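RNA of NIH-3T3 cells was sequenced from 18 libraries in 6 groups of 3. The authors deposited 1 table of raw counts of reads per gene, made with a stranded mRNA kit, paired reads and the RNA Express workflow, for which the submitters' processing notes name STAR and DESeq2. Versions, genome build, annotation and use of strand are not given in the sources used here. Every column was matched to a sample by its label, with 0 columns unmapped. Columns were grouped by genotype, agent and time as labelled, and no depth per library was below 8333148 counts.

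Genes were filtered with filterByExpr (minimum count 10), scaled by TMM and fitted over all 6 groups with edgeR 4.0.16 (limma 3.58.1, R 4.3.3) by the quasi-likelihood test. P-values were adjusted by the Benjamini-Hochberg method over the 11762 genes tested in each of 12 comparisons, and a call is an adjusted p under 0.05. The interactions are Nrf1-KO minus WT differences of log2 fold changes. The common biological coefficient of variation was 3.13%. The p-values measure the spread between these libraries of 1 line each. The fit was tested on simulated data of the 24 h interaction with 11520 genes, where 100% of 200 genes changed 2-fold were recovered and 7 unchanged genes were called. Recovery of changes below 2-fold, the size of most member interactions, was not tested.

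The members and lists were chosen with earlier results of these data known. Named were all members, Nfe2l1, from each other list the 2 called genes at either end per CFZ comparison and interaction, all genes of the ER and mitochondrial and other HSF lists, and the 3 most alike genes outside the members for each member. A gene that this rule names is not reported here. Gene positions and lengths came from GENCODE M21 on GRCm38 and start-site windows from RefSeq on GRCm38.p6, by symbol, for description only. Alternatives were DESeq2 1.42.0, upper-quartile scaling, library size alone, no filter, a mean count of at least 10, the compared groups only, a replicate block, each library left out, a 2-fold minimum, the Hspa1a and Hspa1b counts summed, and the longest transcript.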

Additional observations from a re-analysis of the deposited data

Results flagged for a closer look

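The results here are differences between the lines in the response to CFZ that passed the test of the interaction itself (edgeR, adjusted p under 0.05), given as Nrf1-KO minus WT on the log2 scale. At 6 h they were 0.26 for Hspa1b, 0.24 for Hsph1, 0.56 for Dnajb1 and 0.24 for Dnaja1, where Nrf1-KO cells responded more, and -0.12 for Hspa4, -0.17 for Hsf1 and -1.06 for Hsf2, where they responded less. At 24 h the values were 1.87 for Hspa1a, 1.89 for Hspa1b, 0.50 for Hspa8, 0.73 for Hsph1, 1.18 for Dnajb1 and 0.60 for Dnaja1, against -0.10 for Hspa4, -0.28 for Hspa4l, -0.42 for Hsf1 and -0.55 for Hsf2. The 6 h call was lost in 7 of 19 alternatives for Hspa4 and in 8 of 19 for Hsf1. For Hspa4 the 24 h call was lost in 11 of 19. The change from 6 to 24 h differed by 1.74 for Hspa1a, 1.63 for Hspa1b, 0.46 for Hspa8, 0.49 for Hsph1, 0.62 for Dnajb1, 0.36 for Dnaja1 and 0.52 for Hsf2, and by -0.29 for Hspa4l and -0.25 for Hsf1.

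Among the related genes named in the report, the response at 6 h differed by 0.49 for Dnaja4, 0.19 for Dnajb2, -1.40 for Hspa12a, -0.72 for Dnajc2, 0.61 for Cryab, 0.53 for Fkbp4, -0.29 for Hspb8, 0.29 for Hspa9, -1.24 for Hspa13 and 0.22 for Hyou1. The Hspa12a value rests on group means from 0.78 to 3.10 CPM. At 24 h it differed by 0.49 for Dnajc27, 0.25 for Dnajc14, -1.24 for Dnajb14, -0.61 for Dnajc2, 1.11 for Serpinh1, 0.61 for Fkbp4, -0.33 for Hsbp1, -0.31 for Cacybp, 0.83 for Hspa5, 0.24 for Hspa9, -0.62 for Hspa13, 0.60 for Hyou1 and -0.66 for Hsf4. Within each CFZ time these differences share the DMSO libraries of the lines, and the 6 h and 24 h values share them too.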

How the results depend on the processing

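Of 1764 values of the 120 member results under alternatives, 1702 kept direction and side of the threshold, 39 lost and 7 gained the call with the same direction, and 16 reversed, and the cause was not tested. Reversed under library size alone were Hspa4 (0.0212) and Dnajb1 (0.0261) between the lines in DMSO and Hspa4 in the interaction of line and time (-0.0756), and with no filter Hspa4l in the interaction at 6 h (-0.0129). With 1 library left out, the lines' difference in DMSO ran from -0.042 to 0.00347 for Hspa4 and from -0.057 to 0.0215 for Dnajb1, and the 6 h interaction from -0.152 to 0.39 for Hspa1a, -0.000404 to 0.075 for Hspa8 and -0.0195 to 0.023 for Hspa4l. None of these had passed the test. Outside the members, Nfe2l1 in Nrf1-KO cells at 24 h, which had passed it, was -0.000921 under library size alone. Members with a smaller response in Nrf1-KO cells at 6 h were 1 under upper-quartile scaling and library size alone and 1 to 3 with a library left out (1 without WT DMSO replicate 3, Nrf1-KO DMSO replicate 2 or Nrf1-KO CFZ 6 h replicate 2). HSF-linked genes lower in WT cells at 6 h were 1 under both scalings, and in Nrf1-KO cells at 24 h 2 under library size alone.

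With a 2-fold minimum, members higher and lower were 1 and 3 (24 h against 6 h, WT), 1 and 0 (the same, Nrf1-KO), 0 and 0 (lines in DMSO), 0 and 1 (at 6 h), 4 and 0 (at 24 h), 0 and 1 (interaction at 6 h), 3 and 0 (at 24 h) and 2 and 0 (over time), while of the 11762 genes tested 607 and 814, 772 and 1084, 376 and 208, 507 and 353, 789 and 651, 142 and 185, 479 and 533, and 181 and 311 were, in the same order. Other HSP70 and J-domain genes listed as cytosolic were then 3 and 0, 7 and 2, 4 and 1, and 6 and 4 (WT and Nrf1-KO at 6 and 24 h), and 0 and 1 in both interactions. In those CFZ comparisons the genes tested gave 468 and 665, 1234 and 1705, 388 and 501, and 1347 and 1790. HSF-linked genes lower were 1 in WT cells at 24 h and 0 in Nrf1-KO cells, with 0 and 0 in the interaction at 6 h and 1 and 0 at 24 h. With the longest transcript 5, 10, 5, 5, 6 and 6 of the 10 members kept their place in the order of levels (WT DMSO, 6 h, 24 h, then Nrf1-KO).

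Under library size alone the share of calls that were higher went from 49.6% to 35.4% (WT, 6 h; 37.9% by upper quartile), 49.7% to 36.4% (Nrf1-KO, 6 h), 52.0% to 41.6% (Nrf1-KO, 24 h), 46.9% to 57.7% (lines, DMSO), 49.8% to 60.8% (lines, 6 h) and 48.2% to 30.1% (line and time). The replicate block changed 0 of the 120 member results. Same-numbered libraries of different groups had deviations correlated by 0.0252 on average over 45 pairs (-0.066 to 0.171), against -0.0126 for other numbers, so the numbers were not taken as pairs.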
